A study of Mus musculus with 6 samples.

Results

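Chemokines and their receptors were examined across RNA-seq libraries of stimulated primary osteocytes. Members were the protein-coding genes of the deposited table whose symbol begins with Ccl, Cxcl, Xcl, Ccr, Cxcr or Xcr followed directly by a number, together with *Cx3cl1*, *Cx3cr1*, *Pf4*, *Ppbp*, *Ccrl2* and the atypical receptors *Ackr1* to *Ackr4*. This gave 65 genes of the 56748 listed, of which 41 encode ligands and 24 encode receptors. RNA was sequenced from 3 cultures labelled WT and 3 labelled cKO, and all 6 had been cultured for 7 days and then exposed to 10 ng/mL LPS for 3 h followed by 20 µg/mL aluminum hydroxide for 3 h. According to the methods, the WT cells came from 7-week-old C57BL/6 mice, and the deficient line carried homozygous floxed *Gsdmd* alleles (*Gsdmd* fl/fl) with a Cre transgene driven by the *Dmp1* promoter, which is meant to act in osteocytes. No unstimulated libraries were analysed here, so every value compares genotypes under stimulation. The labels do not say whether the 3 cultures of a group came from separate animals, and the p-values measure the spread between these libraries, which may be technical.

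Chemokines are small secreted proteins that direct the movement of leukocytes by binding G protein-coupled receptors. Ligands are named after the spacing of their first cysteines (CC, CXC, C and CX3C), and many inflammatory ligands are induced through NF-κB when LPS engages its receptor. Atypical receptors bind the same ligands without coupling to G proteins and mostly internalize and clear them. In bone, *Cxcl12* from stromal cells holds blood progenitors in the marrow, and several CC ligands act on monocytes, from which macrophages and osteoclasts arise.

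The libraries held between 39566835 and 49734046 counts on genes. Levels are given as counts per 1000000 counts after scaling by the TMM method (CPM), and a gene passed the test when its adjusted p-value was below 0.05 in the quasi-likelihood test of edgeR, adjusted by Benjamini-Hochberg over the 17146 genes tested. Fold changes compare the libraries labelled cKO with WT on the log2 scale. *Gsdmd*, the targeted gene, went against its label, with 609, 699 and 549 counts in the WT libraries and 885, 937 and 1045 in those labelled cKO (log2 fold change 0.69, adjusted p = 2.27e-06). The count covers the whole gene and does not single out the floxed exons, and each direction given here rests on the label. *Xist*, the RNA of the inactive X chromosome, had 44817 to 51216 counts in the libraries labelled cKO and 4, 0 and 2 in WT, while *Ddx3y*, *Eif2s3y*, *Uty* and *Kdm5d* of the Y chromosome had 0 counts in all 3 libraries labelled cKO. Sex and genotype therefore cannot be told apart for any result given here. Among the defining osteocyte markers, *Sost* had 0 counts in every library, *Mepe* at most 2, *Dmp1* at most 6 and *Phex* at most 22, and *Fgf23* had 14, 34 and 8 counts in WT against 6, 0 and 0. Only *Pdpn* of the 6 markers had enough counts to be tested, and it was lower in the libraries labelled cKO (log2 fold change -0.28, adjusted p = 2.99e-05). Replicates of a group were not copies of each other, since the chi-square per gene between pairs was 4.87 to 14.2.

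The 200 bases before the start site of 5 members are shown first. These ligands hold matches to the NF-κB consensus motif and yet differed in their calls. In the libraries labelled cKO, *Cxcl1*, *Cxcl2* and *Ccl9* were higher, *Cxcl3* did not pass and *Cxcl10* was lower. Only *Cxcl10* gave a lower call among them, and its count is uncertain and its call was lost in 2 fits that left out a library, as given below. The sequences are those of RefSeq on GRCm38.p6, whereas the gene coordinates below are those of the deposited table on mm39. Each is written 5′ to 3′ on the strand of the gene, and capitals mark the matches, which were searched on both strands.
Cxcl1: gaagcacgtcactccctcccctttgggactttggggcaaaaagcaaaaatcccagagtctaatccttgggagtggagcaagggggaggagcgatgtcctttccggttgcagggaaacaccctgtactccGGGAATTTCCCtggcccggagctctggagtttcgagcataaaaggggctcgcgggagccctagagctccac
Cxcl2: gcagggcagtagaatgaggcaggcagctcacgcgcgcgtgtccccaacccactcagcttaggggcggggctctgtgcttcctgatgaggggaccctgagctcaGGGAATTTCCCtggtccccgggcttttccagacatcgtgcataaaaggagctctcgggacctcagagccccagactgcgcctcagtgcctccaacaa
Cxcl3: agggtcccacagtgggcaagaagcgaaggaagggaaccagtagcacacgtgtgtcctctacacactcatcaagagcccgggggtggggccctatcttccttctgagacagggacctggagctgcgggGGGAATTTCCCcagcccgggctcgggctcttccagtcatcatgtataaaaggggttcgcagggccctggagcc
Cxcl10: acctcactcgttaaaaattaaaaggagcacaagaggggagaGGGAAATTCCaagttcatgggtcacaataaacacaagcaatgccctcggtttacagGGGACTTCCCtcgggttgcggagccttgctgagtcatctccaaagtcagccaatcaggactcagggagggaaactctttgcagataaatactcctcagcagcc
Ccl9: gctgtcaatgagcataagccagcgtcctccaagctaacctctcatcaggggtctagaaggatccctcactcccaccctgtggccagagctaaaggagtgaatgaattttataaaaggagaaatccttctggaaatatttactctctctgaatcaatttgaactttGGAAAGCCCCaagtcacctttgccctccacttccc
They lie at chr5:90891045-90891244, chr5:90903699-90903898, chr5:90785901-90786100 and chr5:92348890-92349089 and at chr11:83578637-83578836, the first 3 on the plus strand and the other two on the minus strand. *Cxcl1*, *Cxcl2* and *Cxcl3*, neighbours on chromosome 5, shared the same run of capitals, in which 2 matches overlap by all but a single base and which begins 71, 97 and 73 bases before the start site. *Cxcl10* held 2 separate matches that began 159 and 103 bases before its start, and *Ccl9* held 1 that began 35 bases before. Over windows of 250 bases before to 50 bases after the start, a match was present in 10 of the 28 tested members with a sequence (35.7%), in 1 of 22 untested members (4.55%) and in 1388 of all 27025 genes (5.14%). It was present in 6 of 16 higher members and in 1 of 6 lower members, which is *Cxcl10*. The letters TATAAA, the core of a TATA box, occurred in 11 of the 28 tested members (39.3%) against 15.7% of all genes, and the AP-1 letters TGANTCA in 7 of 28 (25.0%) against 8.97%. Letters for the factor C/EBP were also searched and occurred in 3 of 28 (10.7%) against 12.2% of all genes. Those for the interferon response element (ISRE) and for the factor PU.1 each occurred in 2 of 28 (7.14%), against 3.99% and 3.69%. A match is a run of letters and was not tested for binding.

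Of the 65 members, 36 had enough counts to be tested. In the libraries labelled cKO, 22 of these were higher and 7 lower, while 7 did not pass. Among all genes tested, 20.1% were higher and 19.2% lower. At a change of at least 2-fold, 14 members were higher and 5 lower, where 6.56% of all genes tested were higher and 4.64% lower. The 3 libraries labelled cKO all lay above the 3 WT libraries for 22 members and below them for 8, compared with 25.3% and 23.9% of all genes tested. The median log2 fold change was 0.63 over the tested members and 0.01 over all genes tested, and it was 0.63 also with *Cxcr3*, which had no WT counts, set at its lower bound. In bulk cultures, fewer cells of a type and less RNA per cell cannot be told apart. The filter acts on the counts themselves, so a member silent in one genotype passed it through the other. Of the 29 untested members, 10 had 0 counts in every library, which allows up to 3 counts in each, and 19 had at most 15 counts in any library.

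**Figure D1:**
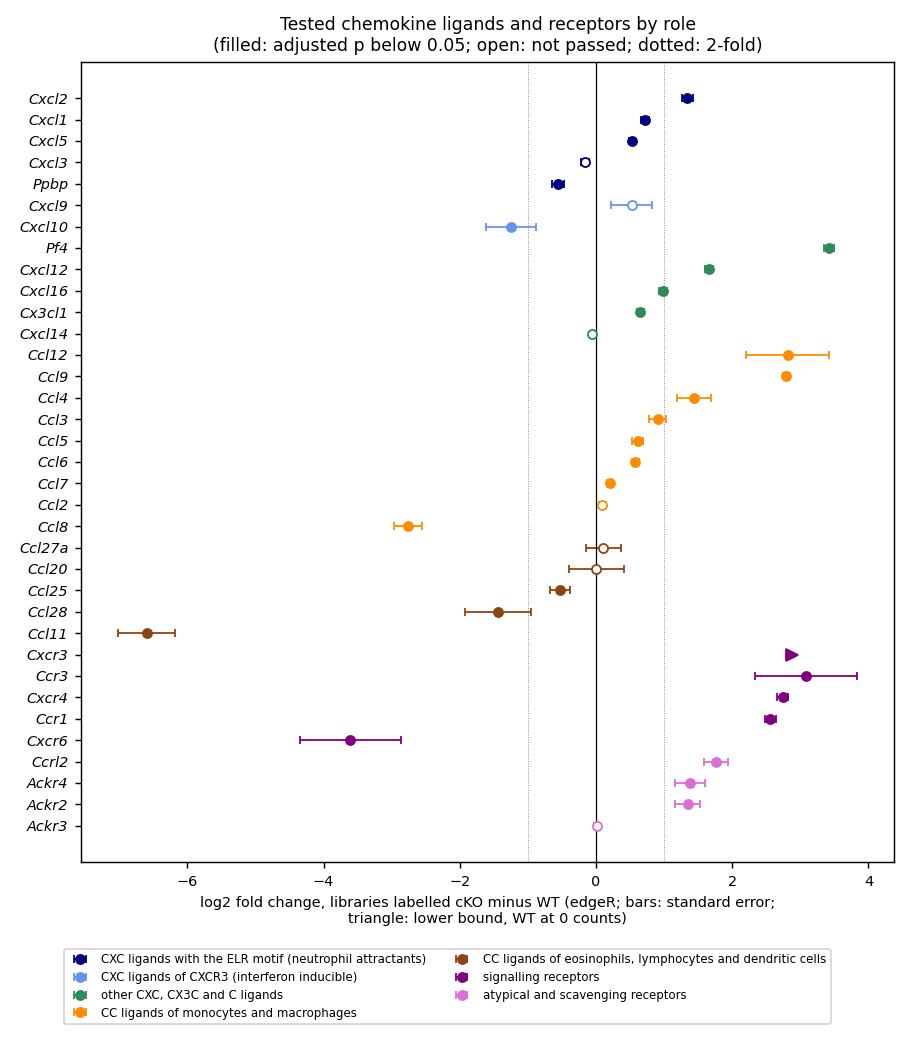
Log2 fold change of all but 1 of the 36 tested chemokine ligands and receptors, libraries labelled cKO against WT, grouped by role; bars give the standard error, filled points passed the test, and the triangle of *Cxcr3* is a lower bound. Higher members outnumber lower ones by 22 to 7, and receptors include changes of both signs, from -3.61 in *Cxcr6* to 3.08 in *Ccr3*.

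CXC ligands that carry the ELR motif draw neutrophils through CXCR2. Of the 6 such ligands, 5 were tested, 3 were higher, 1 was lower and 1 did not pass. *Cxcl5* was the most abundant member per kb of gene length and read 1269, 1167 and 1105 CPM in WT and 1728, 1599.9 and 1785 CPM in the libraries labelled cKO. All 3 of the latter were above WT, by 1.44-fold (log2 fold change 0.53, standard error 0.048, adjusted p = 6.35e-08). *Cxcl1* read 440.5, 414.5 and 347.3 CPM against 664.6, 631.4 and 679.2 CPM, a rise of 1.64-fold (log2 fold change 0.72, adjusted p = 4.51e-08). *Cxcl2*, the mouse Mip2, was scarce beside them, at 7.39 CPM per kb in WT where *Cxcl1* had 213.7, and had the largest fold rise of this group. It was counted 729, 801 and 524 times in WT and 1525, 1529 and 1887 times in the libraries labelled cKO, with a log2 fold change of 1.34 and a standard error of 0.084 (adjusted p = 4.63e-10). *Ppbp*, the precursor of a platelet chemokine, fell from 20.8 ± 1.6 to 14.1 ± 0.549 CPM (SD, n = 3 each; log2 fold change -0.56, adjusted p = 5.01e-05). *Cxcl3*, whose start region holds the same matches as *Cxcl1* and *Cxcl2*, had a log2 fold change of -0.16 and did not pass (adjusted p = 0.0528), although it passed with DESeq2. *Cxcl15* had 0 to 8 counts. The summed level of the 6 ligands lay between 1555 and 1815 CPM in WT and between 2339 and 2588 CPM in the libraries labelled cKO. Of 8 neutrophil markers, 2 had 0 counts throughout, and the sum of all 8 was 6.3 ± 1.64 and 10.5 ± 0.622 CPM (SD, n = 3 each). Most of that sum came from *Camp* (5.12 and 7.21 CPM) and *S100a8* (1.07 and 3.29 CPM). *Ly6g*, *Mpo*, *Elane* and *Ngp* had at most 10 counts in any library.

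The interferon-inducible ligands of CXCR3, which attract activated T cells, stayed at low levels. *Cxcl10* was counted 71, 74 and 100 times in WT and 18, 32 and 51 times in the libraries labelled cKO, and the groups did not overlap. Its log2 fold change was -1.25 (standard error 0.367, adjusted p = 0.0117). The call was lost without WT library 3 and without cKO library 1, where the log2 fold changes were -0.96 and -0.95. *Cxcl10* lies wholly within *Art3* on the opposite strand, and *Art3* fell from 2.07 to 0.145 CPM. Whether counting separated the strands is not given in the sources used here, so the *Cxcl10* count is uncertain. *Cxcl9* read 1.11, 3.35 and 2.5 CPM in WT and 3.99, 3.52 and 2.51 CPM in the libraries labelled cKO, so the groups overlapped, and it did not pass (log2 fold change 0.52, adjusted p = 0.201). *Cxcl11* had 0 counts. In a list of interferon response genes, 15 of 27 tested were higher and 0 lower by edgeR, and the median log2 fold change was 0.52.  *Mx1*, an antiviral GTPase, had the largest change in that list, with 1, 2 and 2 counts in WT and 14, 18 and 12 in the libraries labelled cKO.

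Among the other CXC, CX3C and C ligands, 4 of the 5 tested were higher and none of the 5 passed as lower by edgeR. *Cxcl12*, the stromal ligand of CXCR4, was counted 16217, 17053 and 11529 times in WT and 43948, 42420 and 47587 times in the libraries labelled cKO. All 3 of the latter lay above WT, and the level rose by 3.15-fold from 333.6 ± 32.8 to 1053 ± 12.1 CPM (SD, n = 3 each; log2 fold change 1.66, standard error 0.054, adjusted p = 5.71e-14). *Pf4*, which platelets store in their granules, was counted 740, 746 and 557 times against 6550, 6230 and 8105 times. This was the largest fold rise among the 12 members of highest mean CPM, at 10.7-fold (log2 fold change 3.42, standard error 0.068, adjusted p = 1.51e-16). *Cx3cl1*, the membrane-bound fractalkine, rose by 1.57-fold, from 99.6, 91.1 and 95.8 CPM to 143.2, 157.05 and 150.02 CPM (adjusted p = 7.11e-09), and *Cxcl16*, the membrane-bound ligand of CXCR6, rose by 1.98-fold from 34.2 ± 2.62 to 67.5 ± 2.46 CPM (SD, n = 3 each; adjusted p = 4.53e-10). *Cxcl16* shares 552 bases with *Zmynd15* on the opposite strand, which read 2.09 and 5.17 CPM. *Cxcl14*, a ligand made constitutively by many epithelia and stromal cells, was the second most abundant member per kb in WT. It read 1143, 1104 and 1091.5 CPM in WT and 1085, 1037 and 1080.4 CPM in the libraries labelled cKO, and although the groups did not overlap it did not pass (log2 fold change -0.06, adjusted p = 0.187). *Cxcl13* and *Cxcl17* had at most 4 counts in any library, and *Xcl1* had 0.

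**Figure D2:**
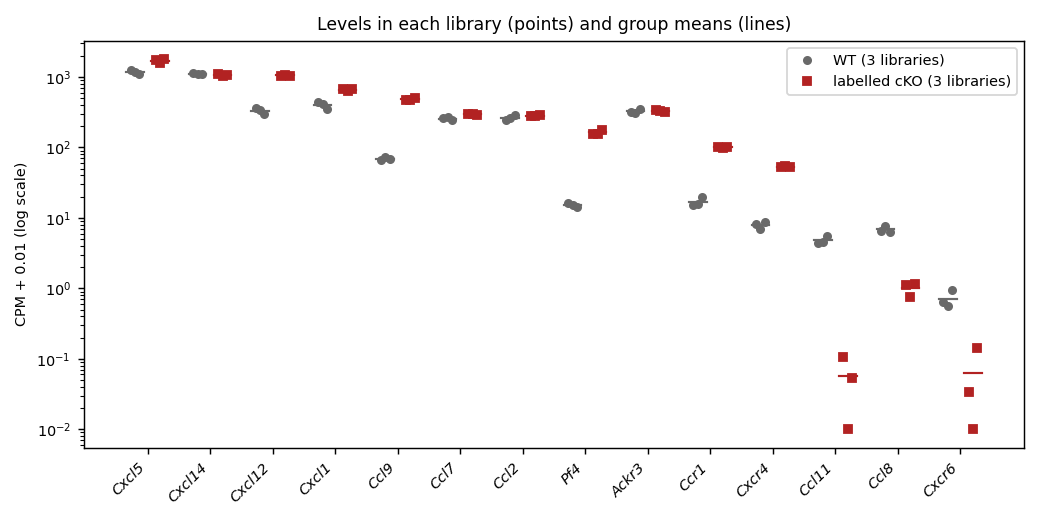
CPM plus 0.01 on a log scale in each library for 14 members, with points for libraries and lines for group means (3 WT, 3 labelled cKO). *Cxcl12*, *Ccl9*, *Pf4*, *Ccr1* and *Cxcr4* lie apart upwards in the libraries labelled cKO, *Ccl11*, *Ccl8* and *Cxcr6* lie apart downwards, and *Ccl2* and *Ackr3* overlap.

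All 9 CC ligands that act on monocytes and macrophages were tested, and 7 were higher, 1 was lower and 1 did not pass. *Ccl9*, a ligand of CCR1 also made by osteoclasts, was counted 3005, 3594 and 2679 times in WT and 19780, 18552 and 23058 times in the libraries labelled cKO. With a log2 fold change of 2.79 and a standard error of 0.048, it had the smallest adjusted p-value of the members (3.63e-17). *Ccl6*, its neighbour and another CCR1 ligand, rose less, from 191.4, 222.1 and 204.4 CPM to 297.7, 313.0 and 310.4 CPM (log2 fold change 0.58, adjusted p = 3.63e-08). The macrophage inflammatory proteins followed. *Ccl3* (Mip1 alpha) was counted 229, 294 and 190 times against 392, 406 and 469 times, with a log2 fold change of 0.91 (adjusted p = 1.81e-05), which is under 2-fold. *Ccl4* (Mip1 beta) was counted 49, 77 and 38 times against 114, 145 and 160 times, with a log2 fold change of 1.44 and a standard error of 0.254 (adjusted p = 0.000183). *Ccl5* (RANTES) rose by 1.53-fold, from 134.7, 152.5 and 108.8 CPM to 207.8, 208.05 and 190.4 CPM (adjusted p = 9.59e-06). All 3 libraries labelled cKO exceeded every WT library for each of these 5 ligands.

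The monocyte chemoattractant proteins (MCP) split. *Ccl2* (MCP-1) read 244.6, 257.5 and 288.1 CPM in WT and 278.0, 275.9 and 287.3 CPM in the libraries labelled cKO, and it did not pass (log2 fold change 0.09, adjusted p = 0.184). *Ccl7* (MCP-3) rose by 1.15-fold, with 260.9, 267.0 and 241.1 CPM against 296.6, 294.8 and 292.5 CPM (adjusted p = 0.00109). *Ccl12* (MCP-5) had 2, 25 and 2 counts in WT and 67, 66 and 55 in the libraries labelled cKO. Its log2 fold change was 2.81 (standard error 0.608, adjusted p = 0.00118), and WT library 2 set its size, since without that library it was 4.87. *Ccl8* (MCP-2) went the other way, from 294, 383 and 245 counts to 47, 30 and 52 counts, with a log2 fold change of -2.76 and a standard error of 0.208 (adjusted p = 6e-09). The 16 macrophage markers moved with the CC ligands that rose. Their summed level lay between 1279 and 1434 CPM in WT and between 7125 and 7458 CPM in the libraries labelled cKO, a ratio of 5.37, and all 15 markers tested rose by at least 2-fold. The 9 CC ligands together read 941 ± 40.8 and 1581 ± 20.6 CPM (SD, n = 3 each), a ratio of 1.68. The part of the macrophage markers in these results was not tested.

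Ligands that act on eosinophils, lymphocytes and dendritic cells were scarce, and none of the 5 tested was higher. *Ccl11* (eotaxin), the ligand of the eosinophil receptor CCR3, was nearly absent from the libraries labelled cKO, with 198, 226 and 217 counts in WT and 4, 0 and 2 there. Its log2 fold change was -6.60 (standard error 0.42, adjusted p = 5.96e-10), and -7.52 without cKO library 1. From the summed counts, *Ccl11* was 102-fold higher in WT, with a 95% counting interval of 46.6 to 279. *Ccl28*, a mucosal ligand of CCR10 and CCR3, had 49, 63 and 27 counts in WT and 14, 25 and 8 in the libraries labelled cKO, and its log2 fold change of -1.44 (adjusted p = 0.0241) no longer passed when either WT library 1 or 2 or either cKO library 1 or 3 was left out. *Ccl25*, the ligand of CCR9, fell by 0.53 on the log2 scale (adjusted p = 0.0103), and did not pass without WT library 1 (log2 fold change -0.45). It shares 204 bases with *Elavl1* on the opposite strand. *Ccl20* and *Ccl27a* had log2 fold changes of 0.00 and 0.11 and did not pass, and the *Ccl27a* count is uncertain because *Ccl27b*, with at most 2 counts, is a close copy. Of the untested ligands, *Ccl17* had most counts, with 3, 8 and 12 in WT and 6, 6 and 4 in the libraries labelled cKO. *Ccl22*, *Ccl19* and *Ccl21b* had at most 4 counts in any library, and *Ccl1*, *Ccl21a*, *Ccl21d*, *Ccl24* and *Ccl26* had 0. The *Ccl21* genes are close copies of each other, and their counts are uncertain. The 7 markers of mast cells and eosinophils, the cells that carry CCR3, had at most 23 counts in any library, and 4 of them had 0.

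Chemokine receptors pass through the membrane of the responding cell, and all but the atypical ones signal through G proteins. Of 10 receptors tested, the 4 atypical ones included, 8 were higher by at least 2-fold, 1 was lower and 1 did not pass. Their median log2 fold change was 2.16, the same with *Cxcr3* at its lower bound. The median over the 26 tested ligands was 0.53. *Ccr1*, found on monocytes, macrophages and osteoclast precursors, was counted 685, 782 and 778 times in WT and 4199, 3860 and 4661 times in the libraries labelled cKO. Its log2 fold change was 2.56 (standard error 0.079, adjusted p = 2.81e-14). *Cxcr4*, the signalling receptor of CXCL12, had 366, 350 and 336 counts against 2230, 2134 and 2372, a rise of 6.68-fold (log2 fold change 2.74, standard error 0.079, adjusted p = 1.4e-14). For both receptors every library labelled cKO lay above every WT library.

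The remaining signalling receptors were near the limit of detection. *Cxcr3*, on the X chromosome and best known from T cells, had 0 counts in every WT library and 25, 15 and 24 in the libraries labelled cKO, which is at least 7.34-fold higher with 3 counts allowed in each WT library (adjusted p = 7.48e-05). *Ccr3* had 2, 0 and 12 counts in WT and 24, 36 and 62 in the libraries labelled cKO. Its log2 fold change was 3.08 (standard error 0.753, adjusted p = 0.00315) and became 5.30 without WT library 3, and it did not pass with DESeq2. *Cxcr6*, a receptor of T cells, was the only lower receptor by edgeR, with 28, 27 and 36 counts in WT and 1, 0 and 6 in the libraries labelled cKO. Its log2 fold change was -3.61 (standard error 0.744, adjusted p = 0.000784), or -5.53 without cKO library 3, and the gene lies within *Fyco1* on the opposite strand, which read 99.2 and 105 CPM. *Ccr2* and *Cx3cr1*, receptors of monocytes, were too low to be tested, and their counts summed to 35 and 25 over the libraries labelled cKO, where WT held 6 and 3. The ratios to WT were 6.12 (95% counting interval 2.55 to 17.8) and 8.74 (2.67 to 45.2). *Cxcr2*, the receptor of the abundant ELR ligands, had 0, 1 and 2 counts in WT and 0 in each library labelled cKO. The other ten untested signalling receptors had at most 12 counts in any library, and *Ccr4*, *Ccr6* and *Ccr8* had 0.

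Of 8 markers of T and NK cells, the cells best known for CXCR3 and CXCR6, 6 had 0 counts and the highest had 12. The summed level of the 19 signalling receptors lay between 25.3 and 31.8 CPM in WT and between 174 and 179 CPM in the libraries labelled cKO. The ratio of 6.39 stood beside that of 5.37 for the macrophage markers, whose part in the receptor results was not tested.

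Atypical receptors were dominated by *Ackr3*, which takes up CXCL12, and which did not pass. It read 322.0, 311.6 and 348.3 CPM in WT and 338.2, 330.9 and 319.0 CPM in the libraries labelled cKO (log2 fold change 0.01, standard error 0.045, adjusted p = 0.899), and this sign turned with DESeq2. The less abundant scavengers rose. *Ackr2*, which clears inflammatory CC ligands, had 112, 93 and 79 counts against 211, 229 and 249 (log2 fold change 1.34, adjusted p = 1.29e-05). *Ackr4*, which clears CCL19, CCL21 and CCL25, had 61, 88 and 61 counts against 187, 129 and 208 (log2 fold change 1.38, adjusted p = 6.73e-05), but it lies within *Acad11* on the opposite strand, and *Acad11* read 33.0 and 32.1 CPM. *Ccrl2*, which binds chemerin and presents it to other cells, had 105, 187 and 122 counts against 414, 494 and 420 (log2 fold change 1.76, standard error 0.176, adjusted p = 2.42e-07). *Ackr1* had 6 counts in WT library 1 and 0 elsewhere.

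Ligands and their cognate receptors were then set side by side. *Cxcl12* and *Cxcr4* both rose, by 3.15-fold and 6.68-fold, while *Ackr3* did not pass. *Ccl3*, *Ccl4*, *Ccl5*, *Ccl6* and *Ccl9* rose together with *Ccr1*. Other pairs moved in opposite directions. *Ccl11* fell as *Ccr3* rose, *Cxcl16* rose as *Cxcr6* fell, and *Cxcl10* fell as *Cxcr3* rose. However, each of these receptors had at most 62 counts in any library. The *Cxcl10* count is uncertain, and *Cxcl9*, the other tested ligand of CXCR3, did not pass (log2 fold change 0.52). *Cxcl5*, *Cxcl1*, *Ccl7* and *Ccl2* were among the 5 most abundant members per kb in both groups. *Cxcr2* and *Ccr2*, which are among the receptors of these ligands but need not be all of them, had at most 2 and 15 counts.

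Many members lie next to each other, and some neighbours took opposite directions while others moved alike. In the CXC group of chromosome 5, *Cxcl5* (90907219 to 90909483 of mm39), *Ppbp* (90916377 to 90917922) and *Pf4* (90920294 to 90921242) lie on the same strand, and only 2.37 kb separate the lower *Ppbp* from the higher *Pf4*. *Cxcl3* follows after 12.7 kb (90933962 to 90937459), and *Cxcl1* (91039100 to 91040974) and *Cxcl2* (91051730 to 91053797) lie 10.8 kb apart. In the MCP group of chromosome 11, *Ccl2* (81926397 to 81928279), *Ccl7* (81936538 to 81938351), *Ccl11* (81948649 to 81953781), *Ccl12* (81992671 to 81994226) and *Ccl8* (82006011 to 82007625) share a strand. There the lower *Ccl11* stands 10.3 kb from *Ccl7* and 38.9 kb from *Ccl12*, which both were higher, and the lower *Ccl8* stands 11.8 kb from *Ccl12*. The macrophage group farther along chromosome 11 was uniform, since *Ccl5* (83416604 to 83421344), *Ccl9* (83463745 to 83469462), *Ccl6* (83478708 to 83483913), *Ccl3* (83538670 to 83540181) and *Ccl4* (83553410 to 83555509) were each higher, with log2 fold changes from 0.58 to 2.79. In the receptor group of chromosome 9, *Cxcr6* (123635540 to 123640825) was lower and *Ccr1* (123762161 to 123768729) and *Ccr3* (123822009 to 123831726) were higher, and the untested *Ccr2* lies 70.3 kb after *Ccr3*.

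**Figure D3:**
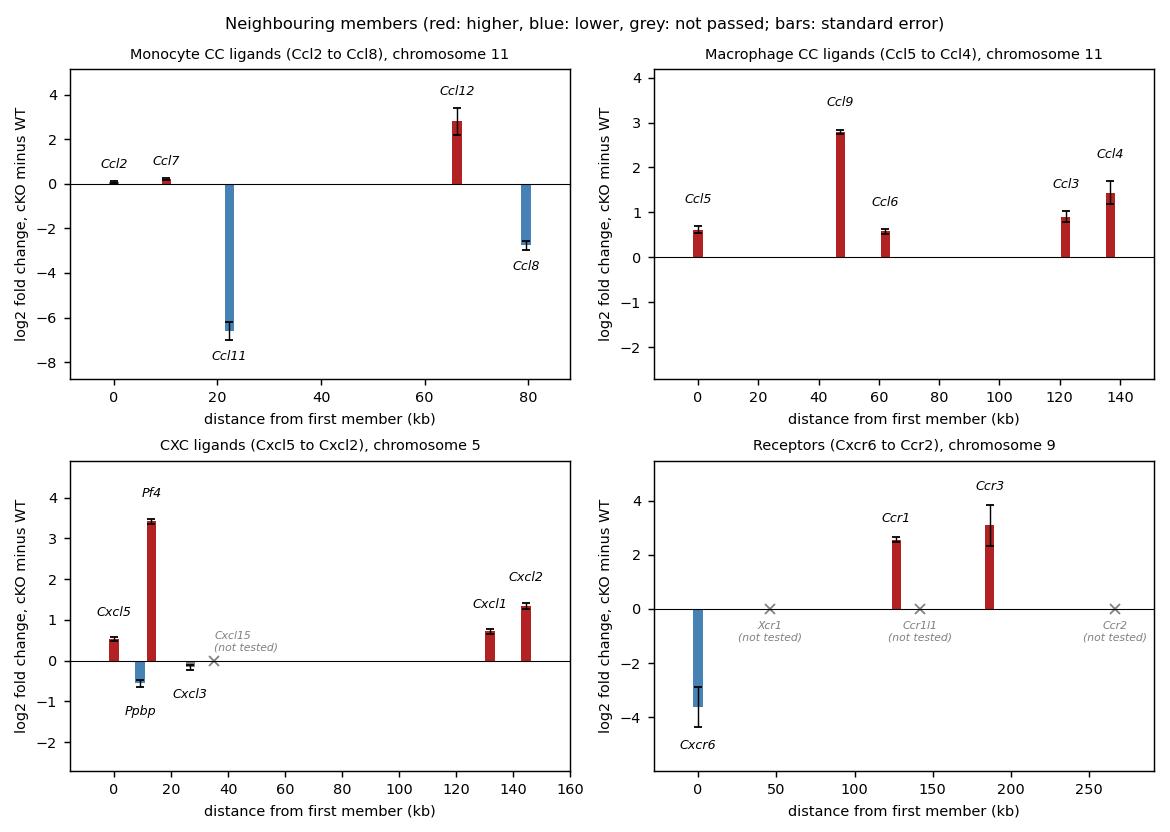
Log2 fold change of neighbouring members (libraries labelled cKO against WT, bars with standard errors) against the distance in kb from the first member of each of 4 groups on chromosomes 11, 5 and 9. The MCP, CXC and receptor groups each hold changes of both signs, as in *Ccl11* (-6.60) beside *Ccl12* (2.81). All 5 members of the macrophage group are above 0.

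To compare levels between genes, CPM were divided by gene length in kb and summed over ligands and over receptors. Ligands summed to 2459 ± 95.7 CPM per kb in WT and 3497 ± 90.0 in the libraries labelled cKO, a ratio of 1.42, and receptors to 111 ± 6.98 and 173 ± 2.45, a ratio of 1.56 (SD, n = 3 each). *Cxcl5* held 25.8% ± 1.02 of the ligand sum in WT and 26.1% ± 0.805 in the libraries labelled cKO, and its share overlapped between the groups although its level rose. The share of *Cxcl14* went from 24.8% ± 0.611 to 16.7% ± 0.227, that of *Ccl7* from 13.0% ± 0.299 to 10.5% ± 0.314 and that of *Ccl2* from 9.45% ± 1.19 to 7.05% ± 0.0753. *Pf4* went from 0.861% ± 0.0352 to 6.48% ± 0.381, *Ccl9* from 0.928% ± 0.0536 to 4.52% ± 0.124 and *Cxcl12* from 1.66% ± 0.101 to 3.69% ± 0.133. Among receptors, *Ackr3* held 88.1% ± 0.515 of the sum in WT and 56.9% ± 0.869 in the libraries labelled cKO. *Ccr1* took 5.39% ± 0.514 and then 20.4% ± 0.79, and *Cxcr4* 3.95% ± 0.23 and then 17.0% ± 0.192. In every library these shares lay apart between the groups, except that of *Cxcl5*.

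**Figure D4:**
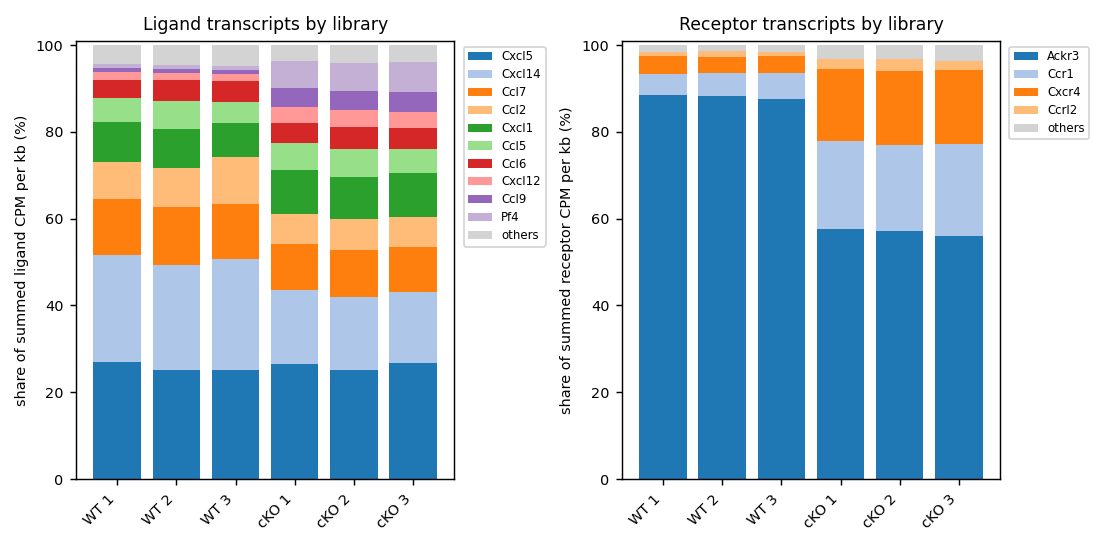
Share (%) of the summed CPM per kb that each ligand (left) or receptor (right) took in each of the 3 WT libraries and 3 libraries labelled cKO. Receptor transcripts were mostly *Ackr3* in WT (88.1%) and shared between *Ackr3* (56.9%), *Ccr1* (20.4%) and *Cxcr4* (17.0%) in the libraries labelled cKO.

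The genes that act around chemokines were taken from 4 lists, in which 69 of 128 tested genes were higher (53.9%) and 20 lower (15.6%), where 20.1% and 19.2% of all genes tested were higher and lower. In the list of chemokine receptor signal transduction, 27 of 49 were higher, of which 17 by at least 2-fold, and 10 lower (median log2 fold change 0.22). *Fgr*, a Src-family kinase of myeloid cells, had the largest rise there (26, 26 and 22 counts against 298, 307 and 334, log2 fold change 3.73), and *Rgs16*, which shortens G protein signals, the largest fall (80.6 ± 5.99 to 26.1 ± 2.12 CPM, SD, n = 3 each, log2 fold change -1.62). Among other chemoattractants, their receptors and chemokine-processing enzymes, 13 of 22 were higher and 5 lower, with a median of 0.31. These ran from *C5ar1*, the receptor of the complement fragment C5a (12.4 ± 2.44 to 108.5 ± 4.7 CPM, log2 fold change 3.14), to *Csf2*, the growth factor GM-CSF (31, 54 and 20 counts against 2, 6 and 0, log2 fold change -3.53). In the LPS and NF-κB response, 14 of 30 were higher (46.7%) and 5 lower (16.7%), with a median of 0.11. *Il1b* rose most in that list (8, 0 and 26 counts against 43, 53 and 109, log2 fold change 2.55) and *Ptgs2*, the inducible cyclooxygenase, fell most (1350 ± 81.9 to 871.1 ± 78.5 CPM, log2 fold change -0.63). Counts of the marker lists for other cells were as follows. Of osteoblast markers 2 of 5 tested were higher and 3 lower, of dendritic cells 1 of 2 higher, of osteoclasts 2 of 5 higher and 1 lower, of endothelial cells 1 of 5 higher and 4 lower, of marrow stroma 2 of 4 higher and 1 lower, and of chondrocytes 3 of 4 higher and 1 lower. The summed level of the chondrocyte markers nevertheless went from 1492 ± 82.0 to 895 ± 47.6 CPM and that of the osteoblast markers from 5882 ± 318 to 3747 ± 141 CPM (SD, n = 3 each). Each sum was mostly a single collagen gene, *Col2a1* (1428 and 797.8 CPM) for chondrocytes and *Col1a1* (5802 and 3650 CPM) for osteoblasts. The sums therefore do not describe the other markers of these lists. B cell markers had at most 29 counts in any library.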

How the data were processed

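Gene-level counts of 6 RNA-seq libraries were used. The authors trimmed 150 bp paired-end reads from a directional kit, aligned them to GRCm39 (mm39) with HISAT2 2.0.5 and counted them on genes, and they deposited raw counts with gene lengths. The submitters' processing notes give featureCounts 1.55.0-p3, and the methods give another release. The strand setting of the counting is not given in the sources used here. Small counts were mostly even (63.4% to 65.7% of those from 1 to 10), so intervals and floors cover counting error only and may be too narrow.

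Counts were filtered with filterByExpr, scaled by TMM and tested with glmQLFit and glmQLFTest of edgeR 4.0.16 in R 4.3.3, with genotype as the only term and Benjamini-Hochberg adjustment over the 17146 tested genes. The procedure was tested on simulated data. CPM use the TMM-scaled library size. Every column of counts matched a library. Same-numbered WT and cKO libraries did not deviate together (correlations -0.0178 to -0.000976), so numbers were not used as pairs.

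The members, roles and gene lists were chosen with earlier results of these data known, so no p-value was computed over a list. Per-library values are given for the 12 most abundant members, members that changed at least 2-fold, *Ccl3*, *Ccl4*, *Cxcl2* and tested receptors. *Ppbp*, *Cxcl3*, *Cxcl9*, *Cxcl16*, *Ccl20*, *Ccl25*, *Ccl27a* and untested members were named after their values were seen, and so were the start regions shown. Alternatives were DESeq2 1.42.0, voom of limma 3.58.1, other scalings and filters, halved counts, a replicate block and each library left out. Start regions came from RefSeq (GRCm38.p6), matched by symbol for 50 of 65 members and 28 of 36 tested. The values of 1 tested receptor are not reported here, although it stays in the counts of members.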

Additional observations from a re-analysis of the deposited data

How the results depend on the processing

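The number of higher members stayed between 19 and 23 over all alternatives and that of lower members between 5 and 8. With the replicate block, 22 members were higher and 7 lower, the call of every member was as without it, and the sign turned only in *Ccl20*. Members lower by at least 2-fold were 3 instead of 5 among genes with a mean of at least 50 counts, since *Ccl28* and *Cxcr6* lie below that mean, and between 3 and 5 with libraries left out. Signs turned only in 3 members that did not pass. *Ackr3* had log2 fold changes of -0.0019 with DESeq2 and -0.0020 with RLE size factors, and -0.0350 to 0.0516 with libraries left out. *Ccl20* had -0.0112 with DESeq2, -0.0103 with RLE size factors and -0.0188 with the replicate block, and -0.32 to 0.20 with libraries left out, and *Ccl27a* had -0.10 to 0.32 there. *Cxcl3* passed as lower with DESeq2, voom, RLE size factors, no filter, halved counts and without WT library 3 or cKO library 3, and *Ccl2* and *Cxcl14* passed without WT library 3 and *Cxcl9* without WT library 2. *Ccr3* lost its call with DESeq2 (log2 fold change 3.01). Over all genes, the share of calls that were higher lay between 49.2% and 55.0%, and the median log2 fold change moved to at most 0.03. Low counts limit several members. *Ccl28* lost its call in 4 and *Cxcl10* in 2 of the fits that left out a library, and the size of the change in *Ccl11*, *Ccl12*, *Cxcr6* and *Ccr3* depended on a single library.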
